A study of Homo sapiens with 16 samples.

Results

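Genes of ribosome biogenesis, including PES1 and its partners in the PeBoW complex, were followed across all 16 RNA-seq libraries of a study of toxic siRNA seeds. The 48 genes form a list drawn up with earlier results of these data known, and they were taken by symbol from the count table of 26485 genes, where all 48 were found. The libraries came from PC3 cells, an established human prostate cancer line, and HeyA8 cells, an established human ovarian cancer line, both labelled wild type. Each line was mock transfected or transfected, at 1 nM according to the labels, with the non-targeting control siNT1, with siGGGGGC (an siRNA built around the 6-base seed GGGGGC) or with siCAG, whose sequence was not used here. Total RNA was taken after 24 or 48 h, with 1 library for each line, transfection and time, so that the 2 times served as the 2 replicates of a condition. The study's methods describe transfection of duplicate wells, of which some were lysed at 24 h and the remainder at 48 h, and the labels do not say which wells went into a library. The fits hold a term for time, so the p-values below measure the spread between these libraries that remains beyond a shift shared by all transfections at a time, and this spread may be technical.

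Ribosomes are built in the nucleolus, where RNA polymerase I transcribes a long precursor rRNA. Box C/D and box H/ACA ribonucleoproteins, guided by small nucleolar RNAs, modify this precursor, and separate sets of assembly factors cut it and fold it into the small and the large subunit. PES1, BOP1 and WDR12 form the PeBoW complex, which the large subunit precursor needs for maturation. MYC, a transcription factor, raises the expression of many of these genes, and cancer cells that divide quickly make large amounts of them.

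Library totals ran from 27937092 to 29971612 counts in PC3 cells and from 29128446 to 31790209 counts in HeyA8 cells. All 48 genes passed the filter on low counts in both lines, so none was left out. Levels are given as counts per 1000000 counts after TMM scaling within a line (CPM). The labelled lines were checked in the mock libraries. HOXB13, a homeobox gene of prostate epithelium, was at 321 and 524 CPM in PC3 cells and at 1.21 and 0.931 CPM in HeyA8 cells. PAX8, a transcription factor of ovarian carcinomas, was at 4.55 and 3.16 CPM in PC3 cells and at 131 and 187 CPM in HeyA8 cells. The prostate marker KLK3 was at 0 counts in all 4 of these libraries and the ovarian marker MUC16 at 0.0333 CPM or below. Of the epithelial markers, CDH1 was at 9.9999 and 9.58 CPM in PC3 cells against 0.0983 and 0 CPM in HeyA8 cells, and EPCAM at 14.6 and 17.9 CPM against 0.753 and 1.26 CPM. The keratins went the other way, with KRT8 at 252 and 233 CPM in PC3 cells against 601 and 782 CPM in HeyA8 cells and KRT18 at 281 and 325 CPM against 478 and 761 CPM. The HeyA8 siCAG libraries stood apart from the others. Their median correlation over all genes tested with the other 7 HeyA8 libraries was 0.931 at 24 h and 0.908 at 48 h, against 0.963 to 0.988 for the rest. In PC3 cells the siGGGGGC library of 48 h was lowest, at 0.947 against 0.967 to 0.981 for the others, and the siGGGGGC calls are given with and without it. Because the HeyA8 siCAG libraries stood apart, fitted results for siGGGGGC in HeyA8 cells are given with and without them.

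The siGGGGGC seed pairs with the 6 bases GCCCCC in a message. Of the 48 genes, 9 (18.8%) held this word in the 3′ UTR when the transcript with the longest 3′ UTR was read. The share was 32.6% of the 13382 genes tested in PC3 cells that have an annotated protein-coding transcript. The 3′ UTRs of the 48 genes were short, with a median of 514.5 bases against 1497 bases over those genes tested. PES1 held 3 matches, RRP1B, MYBBP1A and UBTF held 2 each, and BOP1, NOLC1, NOP14, NOP2 and RRP12 held 1 each. With the transcript of the longest coding sequence in place of that with the longest 3′ UTR, MYBBP1A and NOP2 had none. The genes with more than 1 match are shown as 30-base windows of hg38 in the sense of the message, with the 6 matched bases in capitals, because the siGGGGGC comparisons below refer back to them.
PES1 site 1, chr22:30576751-30576780, minus strand: gaggcccacccaGCCCCCtacctactgccc
PES1 site 2, chr22:30576737-30576766, minus strand: cccctacctactGCCCCCattcatcctggc
PES1 site 3, chr22:30576711-30576740, minus strand: tggctttccacaGCCCCCtcccacacagtt
RRP1B site 1, chr21:43694084-43694113, plus strand: gagcccagcgcaGCCCCCggctcttaccca
RRP1B site 2, chr21:43694673-43694702, plus strand: ccttcccgttatGCCCCCcatacaggagcc
MYBBP1A site 1, chr17:4539385-4539414, minus strand: gcacaggtacggGCCCCCctcagcccctgc
MYBBP1A site 2, chr17:4539057-4539086, minus strand: tgccacctctttGCCCCCaggcttttttgc
UBTF site 1, chr17:44207133-44207162, minus strand: gttctgtcccttGCCCCCctggcctccccc
UBTF site 2, chr17:44206695-44206724, minus strand: gccctctcccctGCCCCCtgcaggaaggag

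The 3 PES1 matches lie close together in a 3′ UTR of 421 bases. Their start positions in it are 278, 292 and 318. PES1 site 2 and MYBBP1A site 2 are followed by an A and preceded by a T. A match is read from the letters here, and no site was measured in these data. The study mutated 3 GCCCCC matches of the PES1 3′ UTR in a luciferase reporter. It reports that this mutant resisted siGGGGGC more than the wild-type construct, in another cell line and at a higher dose than labelled here. For HeyA8 cells it also reports less PES1 after siGGGGGC by RNA-seq, at the higher dose its methods name, by qPCR and by western blot. Knockdown of PES1 with other siRNAs lowered viability there. PES1 was also among the messages measured in its pull-down of biotinylated siGGGGGC from HeyA8 cells.

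Before any siRNA, mock-transfected HeyA8 cells held more RNA of most of these genes than mock-transfected PC3 cells did. With TMM scaling over the 4 mock libraries, 40 of the 48 genes were lower in PC3 cells and 2 were higher by edgeR's quasi-likelihood test at an adjusted p under 0.05, whereas 36.3% of all 14827 genes tested were lower and 38.7% were higher. The median log2 difference of the 48 genes, PC3 minus HeyA8, was -0.85, against 0.050 over all genes tested. This comparison sets 1 line against 1 other line, and whatever differed with the line cannot be told apart from it. The study's methods give fewer HeyA8 than PC3 cells at transfection for RNA-seq. In bulk RNA, fewer cells that express a gene and less RNA per cell cannot be told apart.

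NOP2, an rRNA methyltransferase of the large subunit, differed most, at 73.9 and 65.5 CPM in PC3 cells and 223 and 227 CPM in HeyA8 cells, a log2 difference of -1.69 (SE 0.10, edgeR adjusted p = 6.0e-15). MYC was next, at 81.5 and 94.7 CPM in PC3 cells and 259 and 303 CPM in HeyA8 cells, a log2 difference of -1.67 (SE 0.10). NIP7 and RRS1, both factors of large subunit assembly, differed by -1.61 each. The 2 libraries of a line did not overlap with those of the other line for any of these 4 genes, as for 86.9% of all genes tested. The abundant nucleolar proteins had a median log2 difference of -1.18, the polymerase I group -1.02, the box C/D proteins -1.004 and the PeBoW genes -0.85. The small subunit factors were at -0.84, the large subunit factors at -0.76 and the box H/ACA proteins at -0.34. PES1 was at 114 and 102 CPM in PC3 cells and 162 and 164 CPM in HeyA8 cells, a difference of -0.60 (SE 0.10). The genes higher in PC3 cells were UBTF, a factor that opens rRNA genes for polymerase I, at 0.32 (SE 0.10, edgeR adjusted p = 0.0072), and NOP10, the smallest box H/ACA protein, at 0.32 (SE 0.10, edgeR adjusted p = 0.0057). Fits that left out single mock libraries held 1 library of a line and also no term for time. The median log2 difference of the 48 genes then lay between -0.92 and -0.79. Of 88 further ribosome biogenesis genes, listed by symbol, 65 were lower in PC3 cells and 6 higher, beside the 36.3% and 38.7% of all genes tested.

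**Figure D1:**
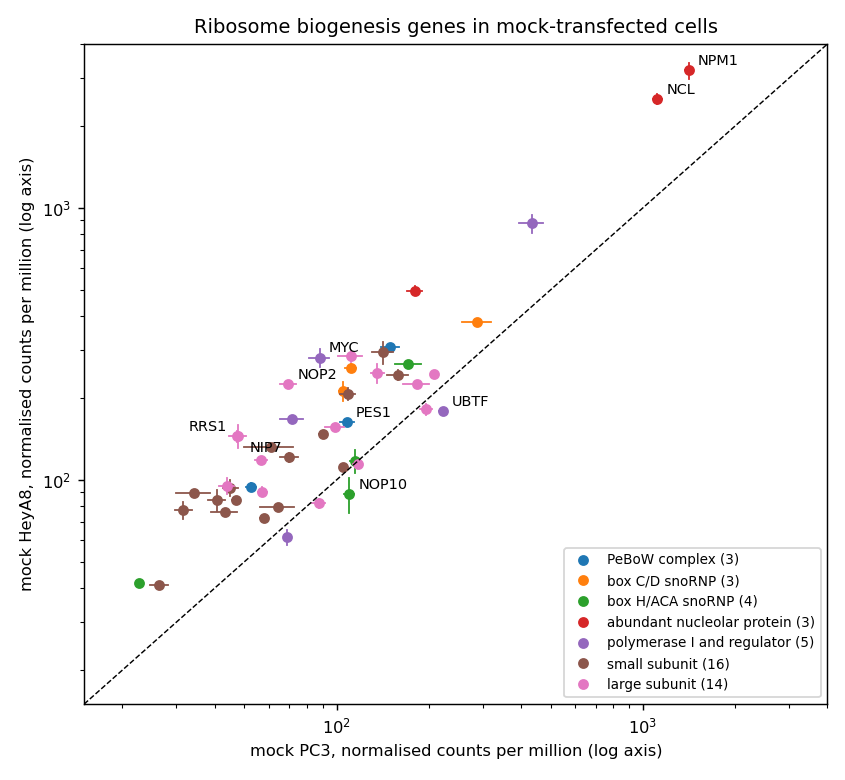
Levels of the 48 genes in mock PC3 (x axis) and mock HeyA8 cells (y axis), in CPM on log axes. Points are means of the 24 and 48 h libraries, lines join the 2 libraries and the dashed line marks equal levels, above which 42 of the 48 points lie.

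Levels can be set between genes only per length. Per kilobase of the exon length given with the counts, NCL and NPM1, multifunctional nucleolar proteins, were the most abundant in both lines, with means of 410 and 339 CPM per kb in mock PC3 cells and 925 and 769 CPM per kb in mock HeyA8 cells. NOP10 came next in PC3 cells, at 206 CPM per kb. In HeyA8 cells FBL came next, at 182 CPM per kb, with NOP10 at 166 CPM per kb. PES1 was at 10.8 and 16.3 CPM per kb. That length takes in every annotated exon, 10008 bases for PES1 and 17463 bases for DKC1, so values per kb of such genes are understated. NPM1 also has 49 annotated pseudogenes, and its level is uncertain where reads could be assigned to them.

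PES1 fell after siGGGGGC in PC3 cells. It was at 127 CPM in both siNT1 libraries and at 129 and 115 CPM in the mock libraries, but at 55.2 CPM at 24 h and 44.7 CPM at 48 h after siGGGGGC. The siGGGGGC libraries lay below every other PC3 library. The mean moved from 127 ± 0.10 to 49.9 ± 7.4 CPM (SD, n = 2), which is 2.54-fold lower (log2 fold change -1.35, SE 0.16, edgeR adjusted p = 0.010). The adjusted p was 0.076 without the 24 h siNT1 library and 0.14 without the 48 h siNT1 library. Ranked from the lowest log2 fold change, PES1 was number 617 of the 15136 genes tested. The PeBoW partners did not pass the test. BOP1 was at 205 and 166 CPM after siNT1 and at 299 and 189 CPM after siGGGGGC (log2 fold change 0.38, SE 0.16, edgeR adjusted p = 0.16), and WDR12 was at 60.2 and 56.0 CPM after siNT1 and 72.8 and 57.2 CPM after siGGGGGC (0.15, SE 0.15, edgeR adjusted p = 0.51). PES1 and TCN2 overlap on opposite strands, and whether the counting used strand is not given in the sources used here.

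Of the 48 genes, 3 fell and 1 rose in PC3 cells after siGGGGGC, which is close to the background. Over all 15136 genes tested 6.00% were lower and 3.67% higher, and the median log2 fold change was 0.097 for the 48 genes and 0.0029 for all. The median of the 48 rested on single libraries. It was -0.11 without the 24 h siGGGGGC library, 0.20 without the 48 h one, -0.010 without the 24 h siNT1 library and 0.18 without the 48 h one. RRP1B, a nucleolar protein of rRNA processing, fell from 212 and 207 CPM to 118 and 80.3 CPM (log2 fold change -1.09, SE 0.19, edgeR adjusted p = 0.020). UTP20, a large scaffold of the small subunit precursor, fell from 202 and 170 CPM to 124 and 81.7 CPM (-0.88, SE 0.16, edgeR adjusted p = 0.024). Both genes were lower after siGGGGGC than in every siNT1 and mock library. NOC2L, a large subunit factor that also binds histones, rose from 223 and 202 CPM to 332 and 327 CPM (0.63, SE 0.14, edgeR adjusted p = 0.036), above every other PC3 library. Without either siNT1 library no gene of all those tested passed. Without the 48 h siGGGGGC library PES1 and RRP1B passed (edgeR adjusted p = 0.022 and 0.038) and UTP20 and NOC2L did not (0.056 and 0.074), where 3.47% of all genes tested were lower and 0.524% higher. That fit holds 1 siGGGGGC library, which is assumed to vary like the other groups. So does the fit without the 24 h siGGGGGC library. For that reason its calls among the 48 genes are not named here. More of all genes tested passed there than with every library in the fit. NOC2L overlaps SAMD11 on the other strand. Without the term for time, UTP20 and NOC2L did not pass (edgeR adjusted p = 0.090 and 0.059).

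The next genes in each direction did not pass the test. NOC3L, a partner of NOC2L in the large subunit precursor, was at 53.5 and 38.3 CPM after siNT1 and 25.2 and 26.5 CPM after siGGGGGC (log2 fold change -0.79, SE 0.25, edgeR adjusted p = 0.080). DDX21, an RNA helicase that acts with polymerase I, was at 529 and 411 CPM and then at 324 and 266 CPM (-0.66, SE 0.17, edgeR adjusted p = 0.0501). RRN3, the initiation factor that recruits polymerase I, was at 69.9 and 72.1 CPM and then at 86.1 and 121 CPM (0.53, SE 0.17, edgeR adjusted p = 0.080), and UTP14A at 38.9 and 32.7 CPM and then at 55.6 and 46.7 CPM (0.51, SE 0.17, edgeR adjusted p = 0.084). The groups did not overlap for any of these 4 genes, as for 22 of the 48 and for 57.2% of all genes tested. DESeq2 called all 4, and 8 of the 48 genes in total, where it called 18.9% of all genes tested. MYC was at 121 and 124 CPM after siNT1, 119 and 83.8 CPM after siGGGGGC and 92.6 and 107 CPM in mock cells, so that siGGGGGC overlapped with mock (log2 fold change against siNT1 -0.27, SE 0.21, edgeR adjusted p = 0.40). Of the 88 further genes, 2 fell and 3 rose, beside the 6.00% lower and 3.67% higher of all genes tested. RPF2 (-0.85) and PAK1IP1 (-0.63) of the large subunit fell, and DDX52 (0.89), TSR2 (0.69) and DDX51 (0.65) rose.

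In HeyA8 cells PES1 had the lowest value of the 48 genes after siGGGGGC. It was at 161 and 167 CPM after siNT1, 146 and 147 CPM in mock cells, 56.7 CPM at 24 h and 29.5 CPM at 48 h after siGGGGGC. Every siNT1, mock and siCAG library lay above both siGGGGGC libraries. The mean moved from 164 ± 3.98 to 43.1 ± 19.3 CPM (SD, n = 2), a log2 fold change of -2.01 (SE 0.37, edgeR adjusted p = 0.19). That p did not pass, and in the fit of all 8 HeyA8 libraries 0 of 13872 genes passed in either direction (0%, with 9.75% at an unadjusted p under 0.05 and 2.29% called by DESeq2). Of the 48 genes, 0 were called by edgeR, 3 had an unadjusted p under 0.05, and DESeq2 called PES1 and RRP1B.

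The fit of all 8 libraries shares 1 estimate of the spread, and the siCAG libraries enter it. The common biological coefficient of variation was 28.2% there and 18.1% over the 4 siNT1 and siGGGGGC libraries alone. Fitted on those 4 libraries, 5 of the 48 genes fell and 0 rose by edgeR, against 5.78% lower and 3.09% higher over all 13312 genes tested. PES1 was at -1.996 (SE 0.20, edgeR adjusted p = 1.3e-08) and RRP1B at -1.14 (SE 0.19, edgeR adjusted p = 5.7e-05) on the log2 scale. MYC was at -1.11 (SE 0.20, edgeR adjusted p = 0.00020), MYBBP1A, a nucleolar regulator of polymerase I, at -0.84 (SE 0.20, edgeR adjusted p = 0.0045), and NOP16, a large subunit factor, at -0.72 (SE 0.20, edgeR adjusted p = 0.017). With the mock libraries added and only the siCAG libraries left out, PES1 (edgeR adjusted p = 0.013) and RRP1B (edgeR adjusted p = 0.028) passed, where 2.56% of all genes tested were lower. The calls in HeyA8 cells thus changed with the libraries in the fit, while the log2 fold change of PES1 stayed between -2.01 and -1.96 over these fits.

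RRP1B was at 168 and 145 CPM after siNT1 and 95.6 and 52.0 CPM after siGGGGGC. MYC was at 266 and 311 CPM after siNT1, 232 and 272 CPM in mock cells and 179 and 98.1 CPM after siGGGGGC. MYBBP1A was at 164 and 160 CPM after siNT1 and at 132 and 61.8 CPM after siGGGGGC. In these 3 genes the groups did not overlap, as for 19 of the 48 and for 50.8% of all genes tested, and the 48 h library was the lower of the pair. NOP16 was at 87.2 and 93.7 CPM after siNT1 and 72.2 and 41.6 CPM after siGGGGGC. The PeBoW partners were at 340 and 325 CPM after siNT1 and 279 and 236 CPM after siGGGGGC for BOP1, and at 70.9 and 79.8 CPM and then 82.6 and 53.6 CPM for WDR12, whose groups overlapped. RRN3 had the highest log2 fold change, 0.41 (SE 0.22, edgeR adjusted p = 0.60 in the fit of 8 libraries), from 52.8 and 54.0 CPM to 64.9 and 77.1 CPM. UTP3, of the small subunit precursor, was next at 0.12 (SE 0.20). The counts place RRN3 on an alternate contig of chromosome 16. It has 3 annotated pseudogenes and overlaps PDXDC1 on the opposite strand, so its level is uncertain in both lines.

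**Figure D2:**
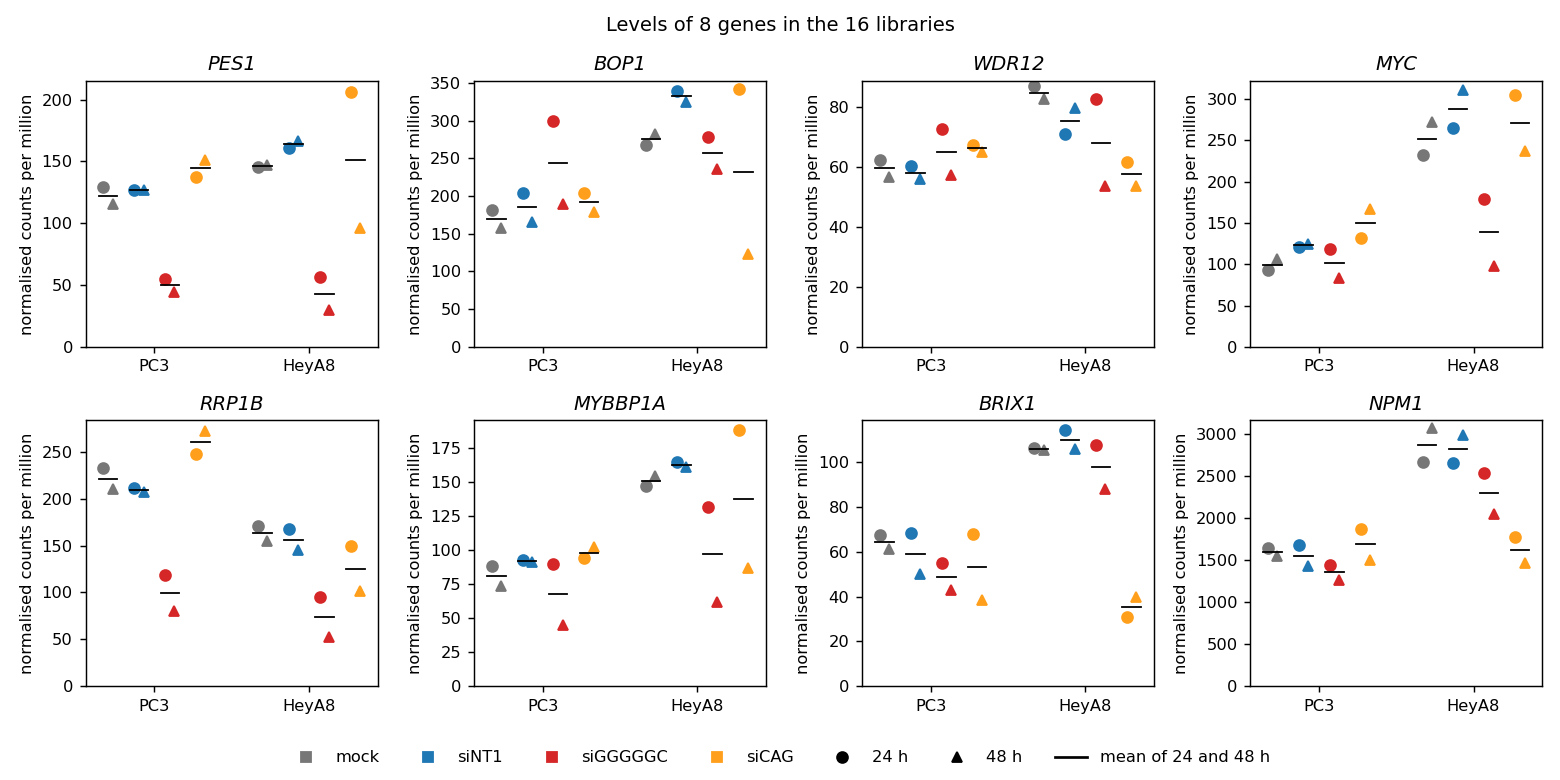
CPM (y axis) of 8 genes in each PC3 and HeyA8 library, by transfection (colour) and time (circles 24 h, triangles 48 h), with a bar at the mean of both times. PES1 and RRP1B are lowest after siGGGGGC in both lines, and BRIX1 is lowest after siCAG in HeyA8 cells.

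The lines can be set side by side because they share no library. In the fits of 8 libraries the genes with 3 or 2 seed matches had log2 fold changes in PC3 and HeyA8 cells of -1.35 and -2.01 for PES1, -1.09 and -1.14 for RRP1B, -0.49 and -0.84 for MYBBP1A, and -0.058 and -0.0076 for UBTF. UBTF was thus near 0 in both lines with 2 matches. UTP20, which fell in PC3 cells, held no match in its 3′ UTR or coding sequence. The median of the 9 genes with a match was -0.048 for PC3 and -0.38 for HeyA8 cells, and that of the other 39 was 0.13 and -0.20. Over all genes tested the medians with and without a match were -0.081 and 0.044 for PC3 cells, and -0.10 and 0.045 for HeyA8 cells. Fitted on the 4 siNT1 and siGGGGGC libraries of HeyA8 cells, MYBBP1A was at -0.84 and UBTF at -0.0045. The medians of the 48 genes with and without a match were then -0.37 and -0.19, and those of all genes -0.11 and 0.044. In HeyA8 cells the median of all 48 genes, -0.20, rested on single libraries. It was -0.41 and -0.079 without the 24 h and the 48 h siNT1 library. Without the 24 h and the 48 h siGGGGGC library it was -0.36 and -0.13.

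**Figure D3:**
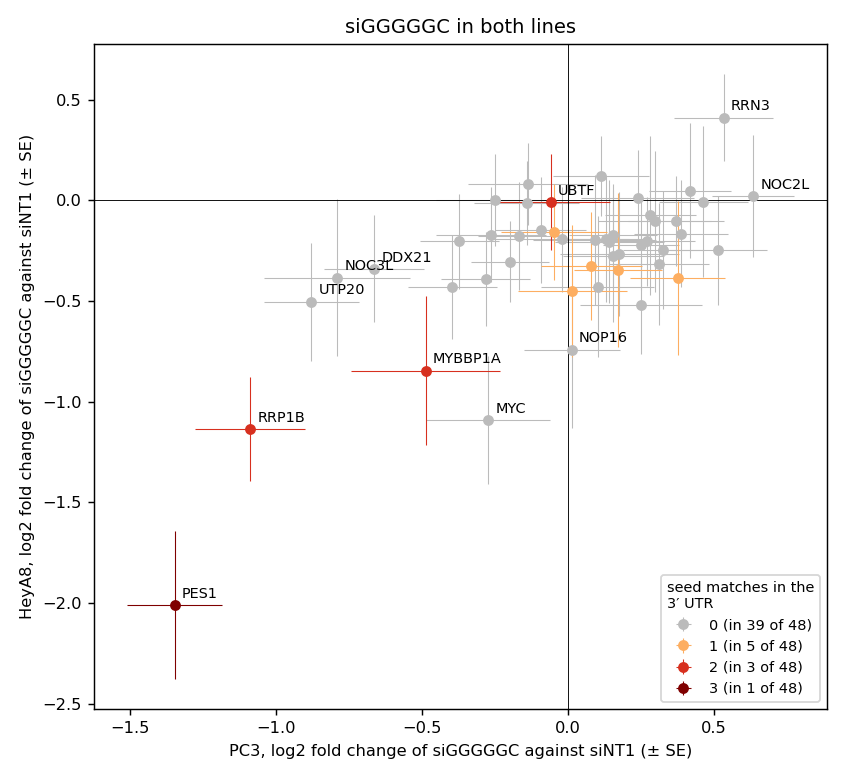
Log2 fold change of siGGGGGC against siNT1 in PC3 (x axis) and HeyA8 cells (y axis) for the 48 genes, from the fits of 8 libraries with SE bars, coloured by the number of seed matches in the 3′ UTR. PES1, with 3 matches, is lowest in both lines at -1.35 and -2.01, and UBTF, with 2, lies at -0.058 and -0.0076.

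The difference of the siGGGGGC response between the lines was tested over all 16 libraries. By edgeR 0 of 15887 genes passed (0%, with 6.63% at an unadjusted p under 0.05 and 19 genes called by DESeq2), and 0 of the 48 genes did (2 at an unadjusted p under 0.05 and 0 by DESeq2). For PES1 the log2 fold change in PC3 minus that in HeyA8 cells was 0.66 (SE 0.42, edgeR adjusted p = 0.83), and for MYC it was 0.82 (SE 0.42, edgeR adjusted p = 0.80). The 2 genes at an unadjusted p under 0.05 were UTP14A (0.76, SE 0.33) and RRS1 (0.76, SE 0.35). Without the siCAG and mock libraries 0 of all 15393 genes tested passed. PES1 was then at 0.64 (SE 0.36), MYC at 0.81 (SE 0.40), UTP14A at 0.75 (SE 0.28) and RRS1 at 0.74 (SE 0.29). BOP1 (0.74, SE 0.25) and NOC2L (0.61, SE 0.22) also had an unadjusted p under 0.05 in that fit (edgeR adjusted p = 0.43 and 0.47).

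After siCAG, 3 of the 48 genes fell in HeyA8 cells and 0 rose, against 4.93% lower and 2.88% higher over the 13872 genes tested. BRIX1, a factor of large subunit assembly, fell from 115 and 106 CPM to 31.1 and 39.8 CPM (log2 fold change -1.64, SE 0.24, edgeR adjusted p = 0.018). UTP15, of the complex that first binds the small subunit precursor, fell from 69.0 and 63.8 CPM to 22.7 and 29.1 CPM (-1.35, SE 0.27, edgeR adjusted p = 0.037). NOP58, a core box C/D protein, fell from 232 and 207 CPM to 109 and 89.1 CPM (-1.15, SE 0.21, edgeR adjusted p = 0.029). The siCAG libraries were below all 6 other HeyA8 libraries for BRIX1, UTP15 and NOP58. WDR75, a partner of UTP15, was at 129 and 121 CPM and then at 47.2 and 67.5 CPM (-1.12, SE 0.27, edgeR adjusted p = 0.053), and DDX21 at 717 and 752 CPM and then at 420 and 367 CPM (-0.91, SE 0.27, edgeR adjusted p = 0.080). Fitted on the 4 siNT1 and siCAG libraries alone, none of the 48 genes passed (for BRIX1 edgeR adjusted p = 0.055) where 3.21% of all genes tested were lower, and none passed without either siNT1 library, where 0.369% and 0.291% of all genes tested were lower. BRIX1 overlaps RAD1 and UTP15 overlaps ANKRA2 on the opposite strand.

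PES1 went in opposite directions at the 2 times after siCAG in HeyA8 cells. It was at 206 CPM at 24 h, above all other HeyA8 libraries, and at 96.0 CPM at 48 h, below all but the siGGGGGC libraries (log2 fold change -0.21, SE 0.35, edgeR adjusted p = 0.73). BOP1 was at 342 CPM at 24 h and 123 CPM at 48 h, against 340 and 325 CPM after siNT1. WDR12 was at 61.8 and 53.7 CPM and MYC at 305 and 238 CPM. Their log2 fold changes were -0.61, -0.40 and -0.11, and none passed the test. No gene of the 48 was higher than siNT1 at both times. Without the 24 h siCAG library 27 of the 48 genes were lower by edgeR, where 17.4% of all genes tested were. Without the 48 h siCAG library 13 were lower, where 21.9% of all genes tested were, and 1, NOP10, was higher, where 11.0% were. Each of these fits holds 1 siCAG library, which is assumed to vary like the other groups.

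In PC3 cells siCAG moved none of the 48 genes past the test, with 1.16% of the 15136 genes tested lower and 0.0396% higher. By edgeR 2 of the 48 had an unadjusted p under 0.05 (13.5% of all genes tested), and DESeq2 called 0 (3.78%). NIP7 had the highest value, from 49.2 and 42.9 CPM after siNT1 to 60.4 and 69.5 CPM after siCAG (log2 fold change 0.50, SE 0.16, edgeR adjusted p = 0.24), followed by DDX56, an RNA helicase of large subunit assembly (0.44), and RRS1 (0.43). UTP20 (-0.33), UTP3 (-0.28), WDR75 (-0.19), RRP12 (-0.19) and BRIX1 (-0.18) had the lowest values among genes that went the same way at both times. PES1 was at 137 and 151 CPM after siCAG, above both siNT1 libraries (0.19, SE 0.16, edgeR adjusted p = 0.64). BOP1 (0.052), WDR12 (0.19) and MYC (0.28) did not pass either. Fitted on the 4 libraries alone, NOLC1, UTP14A, RRS1, DDX56 and NIP7 rose, 5 of the 48, where 4.92% of all genes tested were higher.

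The response to siCAG differed between the lines for 101 of 15887 genes (0.636%), but for none of the 48 by edgeR, with 10 of them at an unadjusted p under 0.05 (14.6% of all genes tested). DESeq2 called BRIX1, UTP15, NOP58 and GAR1, 4 of the 48, where it called 4.22% of all genes tested. For BRIX1 the log2 fold change in PC3 minus that in HeyA8 cells was 1.35 (SE 0.29, edgeR adjusted p = 0.073), and for UTP15 it was 1.08 (SE 0.29, edgeR adjusted p = 0.13). The median over the 48 genes was 0.45, beside -0.13 over all genes tested. The longest run of CTG, the word complementary to CAG, was 3 in the coding sequences and 3′ UTRs of the 48 genes, and 2.75% of the genes tested in PC3 cells held a run of 4 or more.

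After both siGGGGGC and siCAG the summed level of the 48 genes differed more between the times in HeyA8 than in PC3 cells, whereas in the controls it differed more in PC3 cells. In HeyA8 cells it was 12355 CPM at 24 h and 12741 CPM at 48 h after siNT1, and 12389 and 12750 CPM in mock cells. After siGGGGGC it was 11958 CPM at 24 h and 9049 CPM at 48 h, and after siCAG 10460 and 6925 CPM. NPM1 and NCL are the most abundant members. Without them the siCAG sums were 6998 and 4351 CPM, against 7575 and 7526 CPM after siNT1. In PC3 cells the sums lay between 7397 CPM (siGGGGGC at 48 h) and 9267 CPM (siCAG at 24 h), with 8834 CPM after siGGGGGC at 24 h, 8449 CPM after siCAG at 48 h, 8490 and 7784 CPM after siNT1 and 8812 and 7953 CPM in mock cells. Each of these sums is 1 library, and no test was made.

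At 48 h after siCAG in HeyA8 cells all 48 genes were below siNT1 of that time, where 49.5% of all genes tested were, and the median log2 ratio of the 48 was -0.77 beside 0.012 over all genes. At 24 h 25 of the 48 were below (50.2% of all genes tested), with a median of -0.035. After siGGGGGC in HeyA8 cells 43 of the 48 were below siNT1 at 48 h (50.4% of all genes tested), with a median of -0.43. At 24 h 28 were below (48.4% of all genes tested), with a median of -0.025. In PC3 cells the medians were 0.28 at 24 h and -0.072 at 48 h after siGGGGGC, and 0.12 and 0.13 after siCAG.

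Changes over 2-fold down were fewer. After siCAG in HeyA8 cells 6 of the 48 genes were over 2-fold lower at 24 h (17.7% of all genes tested) and 11 at 48 h (13.7%). Those at 24 h were BRIX1, UTP15, NOC3L, WDR75, NOP58 and UTP18, and those at 48 h included BOP1, MRTO4, TSR1, NOC4L, FBL and NPM1, with BRIX1, UTP15 and NOP58 again. After siGGGGGC in HeyA8 cells 1 gene, PES1, was over 2-fold lower at 24 h (3.45% of all genes tested), and PES1, MYC, RRP1B, MYBBP1A, NOP16 and UTP20 were at 48 h (9.62%). In PC3 cells PES1 and NOC3L were over 2-fold lower at 24 h after siGGGGGC (10.1%), and PES1, RRP1B, UTP20 and MYBBP1A at 48 h (11.0%). After siCAG in PC3 cells 0 of the 48 genes were at either time (2.67% and 5.79%). None of the 48 genes was over 2-fold higher than siNT1 in any of these 8 pairs of libraries. Over all genes tested, the shares over 2-fold higher at 24 and 48 h in PC3 cells were 2.10% and 7.93% after siGGGGGC and 1.49% and 3.55% after siCAG. In HeyA8 cells they were 1.80% and 7.74% after siGGGGGC and 8.42% and 14.6% after siCAG. These are ratios of 1 library to 1 other, with no test.

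**Figure D4:**
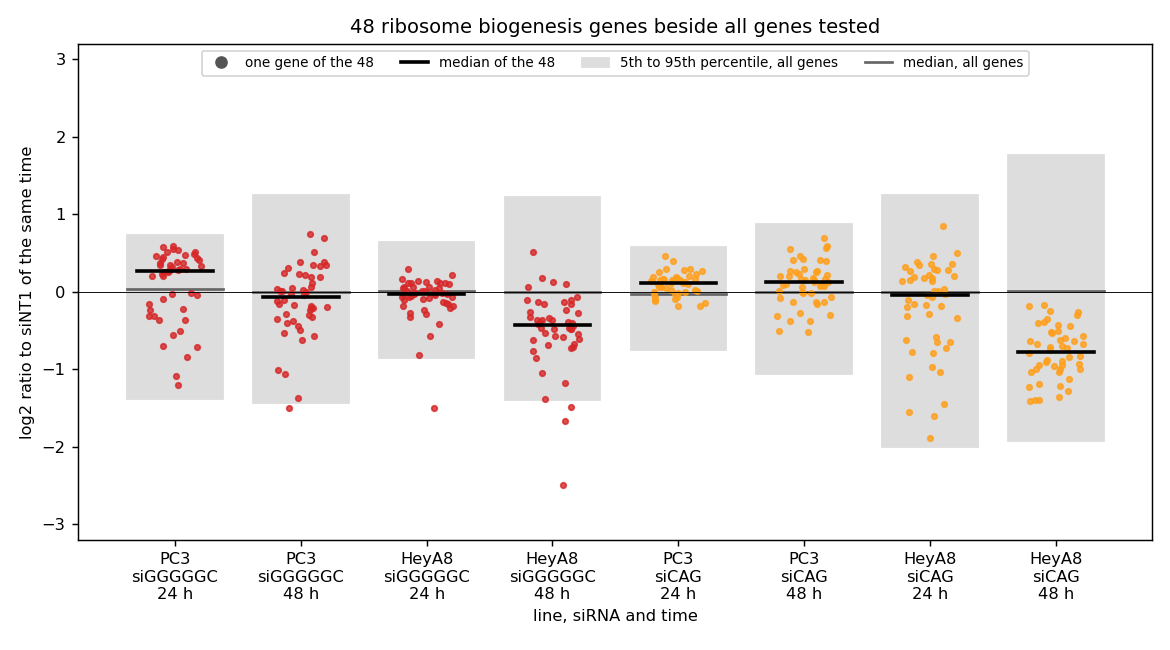
Log2 ratio to siNT1 of the same time (y axis) for the 48 genes (points, black bar at the median) in each siRNA library (x axis), beside the 5th to 95th percentile (grey box) and median (grey bar) of all genes tested. All 48 points lie below 0 for HeyA8 siCAG at 48 h, with a median of -0.77.

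By role, the box C/D proteins had the lowest median at 48 h after siCAG in HeyA8 cells, -1.18, followed by the abundant nucleolar proteins at -0.9995, the PeBoW genes at -0.80, the small subunit factors at -0.77, the large subunit factors at -0.72, the polymerase I group at -0.64 and the box H/ACA proteins at -0.57. At 48 h after siGGGGGC in HeyA8 cells the polymerase I group was lowest, at -0.85, and the box C/D proteins highest, at -0.23. At 24 h after siCAG in HeyA8 cells the roles were mixed. NOP10 (0.86) and NOP2 (0.50) were above siNT1, while BRIX1 (-1.88), UTP15 (-1.60), NOC3L (-1.55) and WDR75 (-1.45) were below. NPM1 was at 1776 and 1459 CPM after siCAG against 2654 and 2986 CPM after siNT1 in HeyA8 cells, and NCL at 1686 and 1115 CPM against 2125 and 2230 CPM.

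**Figure D5:**
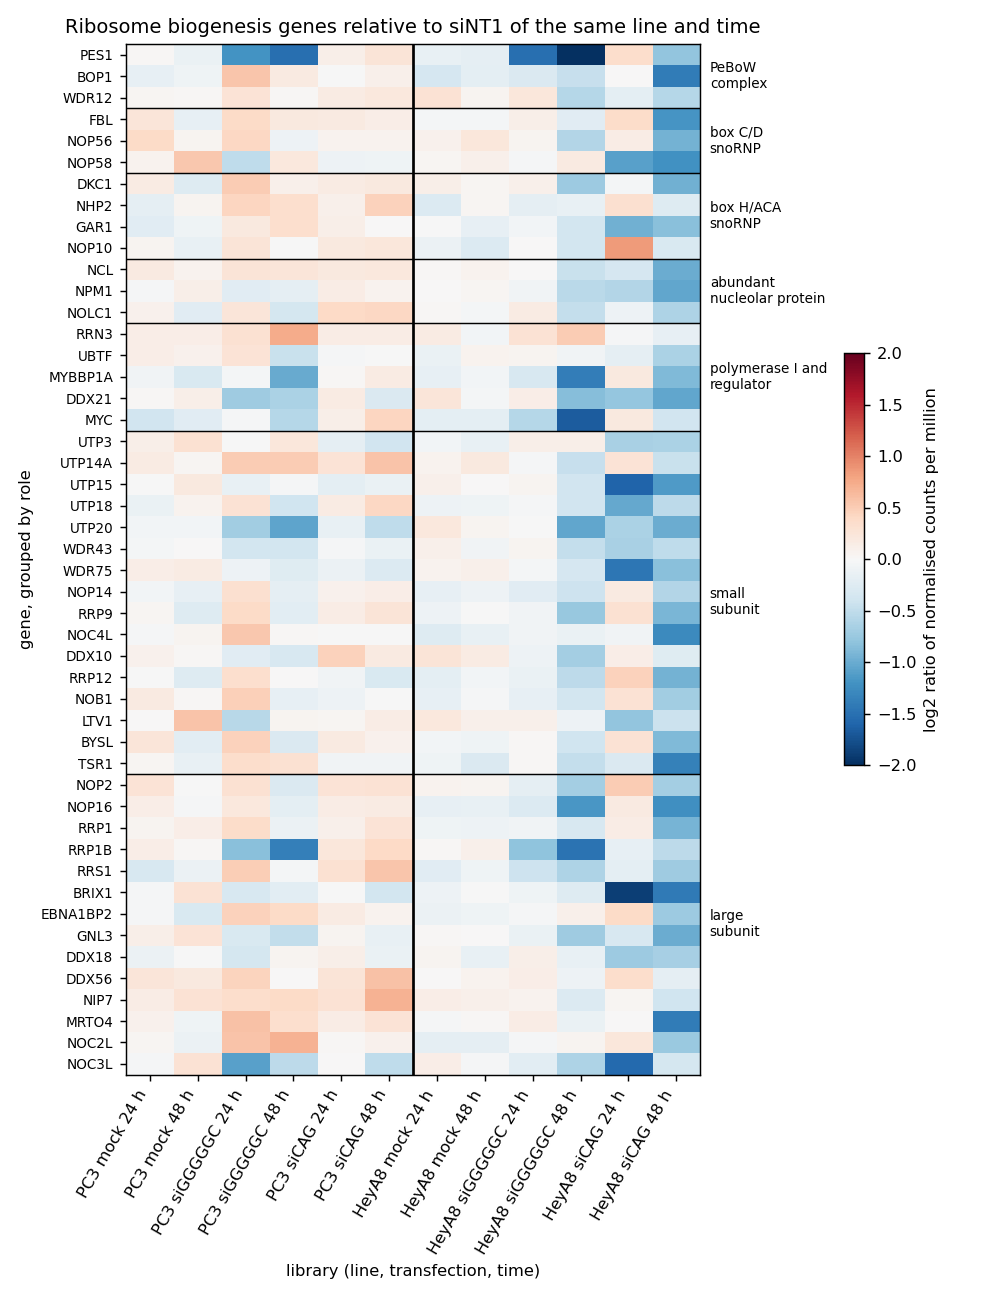
Log2 ratio of CPM to siNT1 of the same line and time (colour, limited to -2 and 2) for the 48 genes by role (y axis) in the mock, siGGGGGC and siCAG libraries (x axis). PES1 and RRP1B are blue in all 4 siGGGGGC columns, and the HeyA8 siCAG column at 48 h is blue throughout.

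The controls differed little for these genes. Between siNT1 and mock 0 of the 48 genes passed in PC3 cells (0.0264% of all genes tested lower and 0.205% higher) and 0 in HeyA8 cells (0% lower and 0% higher, with 177 genes at an unadjusted p under 0.05 and 1 called by DESeq2). In neither line did edgeR give any of the 48 an unadjusted p under 0.05 (9.01% of all genes tested in PC3 cells), and DESeq2 called 0 (1.76% in PC3 cells). The log2 differences of the 48 genes ran from -0.30 to 0.30 in PC3 cells and from -0.21 to 0.26 in HeyA8 cells. Fitted on the 4 HeyA8 control libraries alone, BOP1 was higher after siNT1 (0.27), 1 of the 48, where 6.79% of all genes tested were higher.

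The 88 further ribosome biogenesis genes were all tested. In HeyA8 cells after siCAG 5 fell and 0 rose, close to the 4.93% lower over all genes tested. They were NMD3, an export adaptor of the large subunit (log2 fold change -1.76), SPATA5, an ATPase that strips assembly factors from it (-1.68), TMA16 (-1.31), NOL11, a small subunit factor (-1.23), and RBM34 (-1.08). After siGGGGGC in HeyA8 cells none passed by edgeR, as for all genes tested (0% lower and 0% higher). None passed after siCAG in PC3 cells either, where 1.16% of all genes tested were lower and 0.0396% higher. At 48 h 76 of the 88 were below siNT1 in HeyA8 cells after siGGGGGC and 76 after siCAG (50.4% and 49.5% of all genes tested). Their medians were -0.36 and -0.51. At 24 h 51 and 52 were below (48.4% and 50.2% of all genes tested), with medians of -0.038 and -0.11.

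The promoters were read for CACGTG, a palindrome and so the same on both strands, which is the E-box that MYC can bind. RefSeq promoters of GRCh38.p14, each from 250 bases before to 50 after a start, were given for 40 of the 48 genes. CACGTG stood in 20 of their 47 promoters (42.6%) and in 2548 of all 35116 promoters (7.3%). Counted by gene, 19 of the 40 (47.5%) held it, beside 12.1% of the genes tested in PC3 cells that have a listed promoter and 12.5% of those in HeyA8 cells. BRIX1 and UTP15, called after siCAG in HeyA8 cells, and NOC2L, called after siGGGGGC in PC3 cells, had a listed promoter without CACGTG. Windows from 4 genes that held it are shown, with the 6 bases in capitals. PES1 and UTP20 fell in PC3 cells after siGGGGGC, and NOP2 differed most between the lines. FBL, the rRNA methyltransferase of box C/D particles, was over 2-fold lower in HeyA8 cells at 48 h after siCAG in 1 library against 1. At 24 h its log2 ratio was 0.36, and it did not pass the test (log2 fold change -0.33, edgeR adjusted p = 0.62).
PES1, chr22:30591880-30591909, minus strand: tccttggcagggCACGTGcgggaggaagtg
UTP20, chr12:101280083-101280112, plus strand: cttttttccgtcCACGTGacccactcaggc
FBL, chr19:39846356-39846385, minus strand: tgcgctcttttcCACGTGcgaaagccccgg
NOP2, chr12:6568242-6568268, minus strand: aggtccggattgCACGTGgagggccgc

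In the mock libraries the 19 genes with the word in a listed promoter had a median log2 difference, PC3 minus HeyA8, of -0.89 and the 21 without it -0.66, beside -0.11 and 0.050 over all genes with a listed promoter. After siGGGGGC the medians with and without the word were 0.015 and 0.16 in PC3 cells (0.0065 and -0.00065 over all such genes) and -0.25 and -0.17 in HeyA8 cells (-0.059 and 0.014). After siCAG they were 0.11 and 0.12 in PC3 cells (0.0060 and -0.014) and -0.34 and -0.40 in HeyA8 cells (-0.054 and -0.024). The HeyA8 siCAG median of all 48 genes, -0.39, rested on single libraries. It was -0.76 and -0.054 without the 24 h and the 48 h siCAG library. Without the 24 h and the 48 h siNT1 library it was -0.64 and -0.18. Small nucleolar RNA genes lie inside 7 of the 48 genes (14.6%), NOP56, NOP58, DKC1, NCL, WDR43, TSR1 and GNL3, against 1.69% of the genes tested in PC3 cells that could be matched to the annotation.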

How the data were processed

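RNA-seq was made from total RNA of 16 libraries (8 per line) with a ribosomal RNA depletion kit. Per the labels and the study's methods, the authors trimmed reads, aligned them to hg38 (STAR is named in the submitters' notes) and counted reads on Ensembl exons with HTSeq. The deposited values are raw counts per gene, not normalized. The labels give a dose of 1 nM, and the study's methods name another. Library titles and count columns read siMxy and siNT where the treatment labels read siGGGGGC and siNT1, and the treatment labels were followed. No column belonged to a sample outside the series.

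Within each line edgeR 4.0.16 (R 4.3.3) was used: filterByExpr (minimum count 10), TMM scaling, and the quasi-likelihood test with terms for transfection and time over all 8 libraries, with Benjamini-Hochberg adjustment over all genes tested and a threshold of 0.05. Differences between lines were fitted over all 16 libraries, and mock lines over 4. Log2 ratios at 1 time used a prior count of 2. DESeq2 1.42.0 was an alternative. Each condition has 2 libraries, so the precision is limited by their number, and depth was similar in all.

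The genes and lists were chosen with earlier results of these data known, so no gene list was tested as a set. For each comparison of an siRNA with siNT1, genes are named by a rule. It takes PES1, BOP1, WDR12, MYC and every gene called. It adds the 5 lowest and 3 highest that moved the same way at both times. Of the 88 further genes it takes those called, up to 3 in each direction (all 5 called in HeyA8 cells after siCAG are named). Of the genes called between the mock lines, only PES1, those that differed most and those higher in PC3 cells are named. Genes over 2-fold lower at 1 time were named after their values were seen. So were others outside the rule, such as NOP10 and NOP2 at 24 h after siCAG in HeyA8 cells. The replicate number of a library is its time, so the time term acts as a block: deviations of libraries of the same time correlated at 0.097 to 0.49 in PC3 cells and -0.021 to 0.33 in HeyA8 cells. 3′ UTRs came from GENCODE, matched by symbol, directly for 23161 of 26485 genes and through older symbols for 1384. The alternatives tried were RLE scaling, DESeq2, 2 other filters, no time term, fewer libraries, mock as the control and single times. The fit without the siCAG libraries was added after seeing the data.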

Additional observations from a re-analysis of the deposited data

Results flagged for a closer look

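For 4 gene and siRNA pairs, all libraries of PC3 cells moved above siNT1 and all of HeyA8 cells below it. After siGGGGGC, the log2 ratios of BOP1 at 24 and 48 h were 0.55 and 0.19 for PC3 cells, and -0.29 and -0.46 for HeyA8 cells, a fitted difference of 0.75 (edgeR adjusted p = 0.83). UTP14A had 0.51 and 0.51 (PC3) and -0.028 and -0.46 (HeyA8), a fitted difference of 0.76 (edgeR adjusted p = 0.75). After siCAG, WDR12 had 0.16 and 0.21 (PC3) and -0.20 and -0.57 (HeyA8), a fitted difference of 0.48 (edgeR adjusted p = 0.51). RRS1 had 0.30 and 0.55 (PC3) and -0.19 and -0.72 (HeyA8), a fitted difference of 0.76 (edgeR adjusted p = 0.34). None of these differences passed the test. Over the 48 genes, 6 moved oppositely in this way after siGGGGGC and 11 after siCAG, counting unnamed genes, against 12.6% and 9.88% of the 13192 genes tested in both lines. Groups of 2 libraries are too small for a search for outlying samples.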

How the results depend on the processing

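With 2 libraries a condition, leaving out 1 library changed many calls. All 48 genes passed the filter on low counts, and the effect of depth on the calls was not tested. Counts of the 48 genes called are given as lower and higher, with the shares of all genes tested in brackets. For siGGGGGC in PC3 cells (3 and 1) DESeq2 gave 5 and 3 (11.3% and 7.64%), mock as the control 6 and 2 (12.3% and 8.83%), the 4 libraries 2 and 0 (2.48% and 0.512%), and leaving out single libraries 0 to 5 and 0 to 2 (0% to 13.4% and 0% to 10.1%). In HeyA8 cells (0 and 0) DESeq2 gave 2 lower (1.90%), the 4 libraries 5 (5.78%), the fit without siCAG 2 (2.56%), and leaving out single libraries 0 (0%). For siCAG in HeyA8 cells (3 and 0) DESeq2 gave 9 lower (10.9%), no filter 5 (4.20%), the 4 libraries 0 (3.21%), and leaving out single libraries 0 to 27 lower (0.291% to 21.9%) and 0 to 1 higher (0% to 14.1%). For siCAG in PC3 cells (0 and 0) the 4 libraries gave 5 higher (4.92%), and for siNT1 against mock in HeyA8 cells 1 higher (6.79%). DESeq2 gave 4 genes for the siCAG difference between lines, all with a higher log2 fold change in PC3 cells (2.13%). For the mock lines, leaving out single libraries also dropped the term for time. The median log2 difference of the 48 genes was then -0.92 to -0.79. The cause was not tested.

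Without the replicate block (no term for time) the counts were 2 and 0 for siGGGGGC in PC3 cells (2.96% and 1.17%), 6 and 0 for siCAG in HeyA8 cells (5.20% and 3.36%) and 38 and 1 for the mock lines (34.6% and 37.3%). The block changed no other count of the 48 genes.

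Some log2 fold changes that had not passed in the reported fits changed sign. With mock as the control MYC was at 0.029 after siGGGGGC in PC3 cells and at 0.086 after siCAG in HeyA8 cells. Leaving out single libraries gave, after siGGGGGC, -0.67 to 0.0051 for MYC in PC3 cells and -0.48 to 0.12 for WDR12 in HeyA8 cells. After siCAG it gave -0.053 to 0.15 for BOP1 and -0.44 to 0.055 for BRIX1 in PC3 cells, and -0.65 to 0.17 for PES1 and -0.39 to 0.17 for MYC in HeyA8 cells. For siNT1 against mock it gave -0.039 to 0.11 for PES1 and -0.11 to 0.0035 for WDR12 in PC3 cells, and, in HeyA8 cells, -0.24 to 0.55 for PES1, -0.032 to 0.63 for BOP1, -0.41 to 0.059 for WDR12 and -0.11 to 0.50 for MYC.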
